A study of Mus musculus with 16 samples.

Results

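Immediate early and axon injury response genes were examined in RNA-seq of compartmentalized mouse motoneurons. The set was given as a list of 10 gene symbols, Fos, Fosb, Jun, Junb, Egr1, Arc, Npas4, Nr4a1, Atf3 and Sox11, out of 46320 genes in the count table, and all 10 passed the filter on low expression that left 19964 genes. The motoneurons came from the spinal cord of embryonic day 13 mice that either were +/+ or carried a homozygous CRISPR/Cas9 deletion of the first exons of Hnrnpr (Hnrnpr-/-), the gene of the RNA-binding protein hnRNP R. Cultures were kept in microfluidic chambers whose narrow channels let axons, but not cell bodies, reach a separate compartment, with CNTF at 5 ng/ml on both sides and BDNF at 20 ng/ml only on the axonal side in every group. RNA was taken from the somatodendritic and from the axonal compartment, with 4 libraries in each of the 4 groups and 16 in all. The deletion was present in every cell of the Hnrnpr-/- embryos, so these libraries do not separate an effect in the neuron from one in the other cells of the culture. The study describes the 4 libraries of a group as biological replicates, and the labels do not tie them to embryos or cultures.

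Total counts ranged from 22024923 to 34864151 per library, so that 3 counts, the limit that a count of 0 allows, were worth 0.0811 to 0.141 CPM (counts scaled to a common library size, as is usual for RNA-seq). Hnrnpr was at 178 to 241 CPM in +/+ and 0.545 to 1.16 CPM in Hnrnpr-/- somatodendritic libraries, and at 120 to 422 CPM in +/+ and 0.597 to 1.1 CPM in Hnrnpr-/- axonal libraries. The summed level of 12 motoneuron and neuron markers was 4070 to 6830 CPM in somatodendritic and 264 to 3080 CPM in axonal libraries. Mnx1, a defining motoneuron transcription factor, was at 0 in 3 of the 4 groups, and Chat, the acetylcholine-synthesizing enzyme, reached at most 1.31 CPM. Other motoneuron markers of that list were detected. Somatodendritic levels were 3.9 to 11.6 CPM for Slc18a3, 2.72 to 7.74 CPM for Slc5a7 and 3.89 to 8.03 CPM for Isl1. Their axonal levels were 0.0306 to 2.61, 0.6 to 9.76 and 0 to 5.06 CPM. Markers of other cells were present, and some of these lists were higher in axonal libraries. The sum of 7 pericyte and smooth muscle markers was 60.9 to 455 CPM in somatodendritic and 1290 to 11300 CPM in axonal libraries. That of 9 astrocyte and radial glia markers was 1060 to 2300 and 2090 to 5440 CPM, with some overlap. The sum of 6 endothelial markers was 5.67 to 31.4 and 48.3 to 255 CPM, but Cldn5 and Cdh5, which define that cell type, were at 0 in all +/+ axonal libraries. The sums of oligodendroglia and Schwann cell (106 to 1000 and 80.7 to 871 CPM), fibroblast and meningeal (154 to 1370 and 149 to 1610 CPM) and microglia markers (11.3 to 127 and 0.72 to 382 CPM) overlapped between the compartments. Fewer cells of a type and less RNA per cell cannot be told apart in such bulk samples.

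Immediate early genes are switched on within minutes of a stimulus such as membrane depolarization, calcium entry or a growth factor, by transcription factors that are already in the cell and without new protein synthesis. Many of them encode transcription factors themselves. Fos and Jun proteins pair as the AP-1 dimer, Egr1 is a zinc finger factor, Nr4a1 an orphan nuclear receptor, Npas4 a factor induced by calcium entry in neurons, and Arc a cytoskeleton-associated protein of synapses. After an axon is cut, signalling through the kinase DLK and JNK raises Jun and Atf3 in the cell body, and Sox11 supports axon growth in embryonic and injured neurons.

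One of the routes to these genes runs through CREB, which binds the cAMP response element (CRE) TGACGTCA and, more weakly, its half-site TGACG. The 250 bases before the transcription start were found for 8 of the 10 genes in the RefSeq table of build GRCm38.p6, which is not the build of the counts. The half-site, searched on both strands, was in 6 of these 8 windows and in 17.8% of 32851 promoter windows of the same length, and a half-site within a full CRE would count under both. The full CRE was in 0 of the 8 (1.55% of all windows), the AP-1 site TGAGTCA in 0 (4.46%) and the CArG box bound by SRF in 0 (1.47%). A match of letters is a description and not a binding site. Sites farther upstream lie outside these windows, and Egr1 and Arc had no window, so a count of 0 does not show that a gene lacks a site. The 5 windows of activity-induced genes with a half-site are shown because these genes move together below. Capitals mark the half-site, written CGTCA where it lies on the other strand. The windows are chr12:85473640-85473889 (plus strand) for Fos, chr7:19310046-19310295 (minus) for Fosb, chr8:84978749-84978998 (minus) for Junb, chr19:4989972-4990221 (minus) for Npas4 and chr15:101266596-101266845 (plus) for Nr4a1, each read 5′ to 3′ towards the gene.
Fos: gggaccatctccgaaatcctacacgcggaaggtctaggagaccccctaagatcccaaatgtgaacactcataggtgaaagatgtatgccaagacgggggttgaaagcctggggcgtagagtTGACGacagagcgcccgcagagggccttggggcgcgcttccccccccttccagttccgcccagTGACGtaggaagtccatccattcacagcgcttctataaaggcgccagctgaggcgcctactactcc
Fosb: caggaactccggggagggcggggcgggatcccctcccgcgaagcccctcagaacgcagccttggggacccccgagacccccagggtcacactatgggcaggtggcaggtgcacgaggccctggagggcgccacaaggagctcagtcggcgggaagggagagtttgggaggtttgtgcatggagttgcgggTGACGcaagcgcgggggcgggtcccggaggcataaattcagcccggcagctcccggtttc
Junb: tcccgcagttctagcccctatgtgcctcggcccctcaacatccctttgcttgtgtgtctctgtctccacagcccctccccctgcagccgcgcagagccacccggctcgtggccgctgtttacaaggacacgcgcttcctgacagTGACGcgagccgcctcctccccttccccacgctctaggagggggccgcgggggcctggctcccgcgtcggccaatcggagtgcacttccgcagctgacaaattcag
Npas4: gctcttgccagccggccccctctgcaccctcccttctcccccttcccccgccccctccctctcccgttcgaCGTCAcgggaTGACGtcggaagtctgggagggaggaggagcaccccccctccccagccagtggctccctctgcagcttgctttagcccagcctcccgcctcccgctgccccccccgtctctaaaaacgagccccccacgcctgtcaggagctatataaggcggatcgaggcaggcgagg
Nr4a1: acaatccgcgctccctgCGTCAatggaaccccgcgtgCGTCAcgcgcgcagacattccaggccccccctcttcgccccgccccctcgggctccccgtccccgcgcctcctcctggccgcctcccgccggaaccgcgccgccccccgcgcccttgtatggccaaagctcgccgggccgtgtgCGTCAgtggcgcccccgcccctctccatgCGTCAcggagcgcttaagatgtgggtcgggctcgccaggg
In Fos the half-sites began 129 and 66 bases before the start, in Fosb 60 and in Junb 106 bases before it. Npas4 held 2 half-sites 5 bases apart in opposite orientation, and Nr4a1 held 4. Atf3, not shown, had 1 half-site that began 7 bases before its start, and the windows of Jun and Sox11 had none.

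The Fos family members varied widely between replicate libraries. Fos (chr12:85520664-85524048 in GRCm39), the founding AP-1 subunit, was at 9.84, 63.9, 74.5 and 195 CPM in +/+ somatodendritic replicates 1 to 4 and at 281, 60, 28.9 and 40.4 CPM in Hnrnpr-/- somatodendritic replicates 1 to 4. In axonal libraries it was at 35.6, 89.8, 68.2 and 247 CPM in +/+ and at 405, 81.0, 43.9 and 175 CPM in Hnrnpr-/- motoneurons. Replicate 4 of +/+ and replicate 1 of Hnrnpr-/- were the highest of their group in both compartments, and all 4 groups overlapped. Fosb (chr7:19036621-19043970), a second Fos protein, was far lower. It had 0, 60, 101 and 145 counts in +/+ somatodendritic replicates (0, 2.7, 4.18 and 6.81 CPM) and 520, 32, 9 and 5 counts in Hnrnpr-/- ones (21.4, 1.39, 0.377 and 0.215 CPM). Its axonal levels were 0, 0.622, 0.715 and 0.948 CPM in +/+ and 3.92, 0.621, 0.300 and 0.763 CPM in Hnrnpr-/- motoneurons. The counts of 0, both in +/+ replicate 1, allow up to 0.0905 CPM in the somatodendritic and 0.102 CPM in the axonal library.

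Among the Jun proteins, which pair with Fos proteins, Junb varied and Jun did so far less. Junb (chr8:85703538-85705377) was at 3.53, 2.88, 11.9 and 31.3 CPM in +/+ and at 54.2, 2.6, 7.04 and 12.4 CPM in Hnrnpr-/- somatodendritic replicates 1 to 4. In axonal libraries Junb was at 52.7, 18.9, 93.4 and 231 CPM in +/+ and at 145, 19.3, 72.1 and 179 CPM in Hnrnpr-/- motoneurons. Axonal levels lay mostly above somatodendritic ones, with overlap in both genotypes. Jun (chr4:94937273-94940459) was at 170, 151, 163 and 115 CPM in +/+ and at 191, 134, 157 and 102 CPM in Hnrnpr-/- somatodendritic replicates. Its axonal levels were 144, 136, 196 and 129 CPM in +/+ and 191, 144, 176 and 141 CPM in Hnrnpr-/- motoneurons. Jun thus kept within 1.92-fold over all 16 libraries, where Junb spanned 88.8-fold and Fos 41.2-fold.

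Egr1, Nr4a1 and Npas4 are activity-induced transcription factors outside AP-1. Egr1 (chr18:34994260-34998009) was at 11.7, 7.34, 50.6 and 259 CPM in +/+ and at 253, 12, 33.7 and 85.7 CPM in Hnrnpr-/- somatodendritic replicates 1 to 4. In axonal libraries Egr1 was at 75.2, 21.5, 61.3 and 472 CPM in +/+ and at 281, 30.4, 62.0 and 385 CPM in Hnrnpr-/- motoneurons. The highest Egr1 library was thus again +/+ replicate 4, and Hnrnpr-/- replicates 1 and 4 were the high ones of the other genotype. Nr4a1 (chr15:101151788-101172676) was at 10.2, 16.2, 58.5 and 61.3 CPM in +/+ and at 168, 14.2, 38.3 and 11.3 CPM in Hnrnpr-/- somatodendritic replicates, and at 16.6, 19.5, 144 and 84.4 CPM and at 182, 34.4, 54.0 and 54.9 CPM in the axonal ones. Npas4 (chr19:5034381-5053467) was at 3.74, 4.14, 9.23 and 21.2 CPM in +/+ and at 52.1, 3.33, 3.10 and 4.85 CPM in Hnrnpr-/- somatodendritic replicates, and at 0.851, 6.06, 5.59 and 16 CPM and at 37.2, 3.88, 4.68 and 2.42 CPM in the axonal ones. For both genes Hnrnpr-/- replicate 1 was the highest of all libraries of its compartment.

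Arc (chr15:74540930-74544419), whose mRNA is known for its transport into dendrites, was at 8.48, 8.24, 12.7 and 28.3 CPM in +/+ and at 49.7, 8.10, 7.12 and 11.9 CPM in Hnrnpr-/- somatodendritic replicates 1 to 4. Its axonal levels were 5.79, 3.60, 4.91 and 16.7 CPM in +/+ and 22, 5.06, 5.28 and 7.36 CPM in Hnrnpr-/- motoneurons. The same libraries as for Fos were high, and the groups overlapped.

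The injury-response genes behaved differently from one another. Atf3 (chr1:190902493-190915530), a bZIP factor that neurons express after axotomy, was at 3.35, 4.10, 6.75 and 4.32 CPM in +/+ and at 5.85, 3.25, 4.94 and 6.01 CPM in Hnrnpr-/- somatodendritic replicates 1 to 4. In axonal libraries it was at 10.3, 5.81, 28.5 and 19.5 CPM in +/+ and at 10.0, 5.96, 12.3 and 32.0 CPM in Hnrnpr-/- motoneurons. Only the axonal replicate 2 of each genotype lay within the somatodendritic range of its genotype. Sox11 (chr12:27384267-27392717), a SoxC transcription factor of immature neurons, was at 96.3, 139, 135 and 121 CPM in +/+ and at 136, 145, 144 and 137 CPM in Hnrnpr-/- somatodendritic replicates. Its axonal levels were 103, 566, 114 and 64.9 CPM in +/+ and 123, 91.8, 121 and 48.3 CPM in Hnrnpr-/- motoneurons. Axonal +/+ replicate 2 stood apart, and all 4 Hnrnpr-/- axonal libraries were below all 4 Hnrnpr-/- somatodendritic ones.

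**Figure D1:**
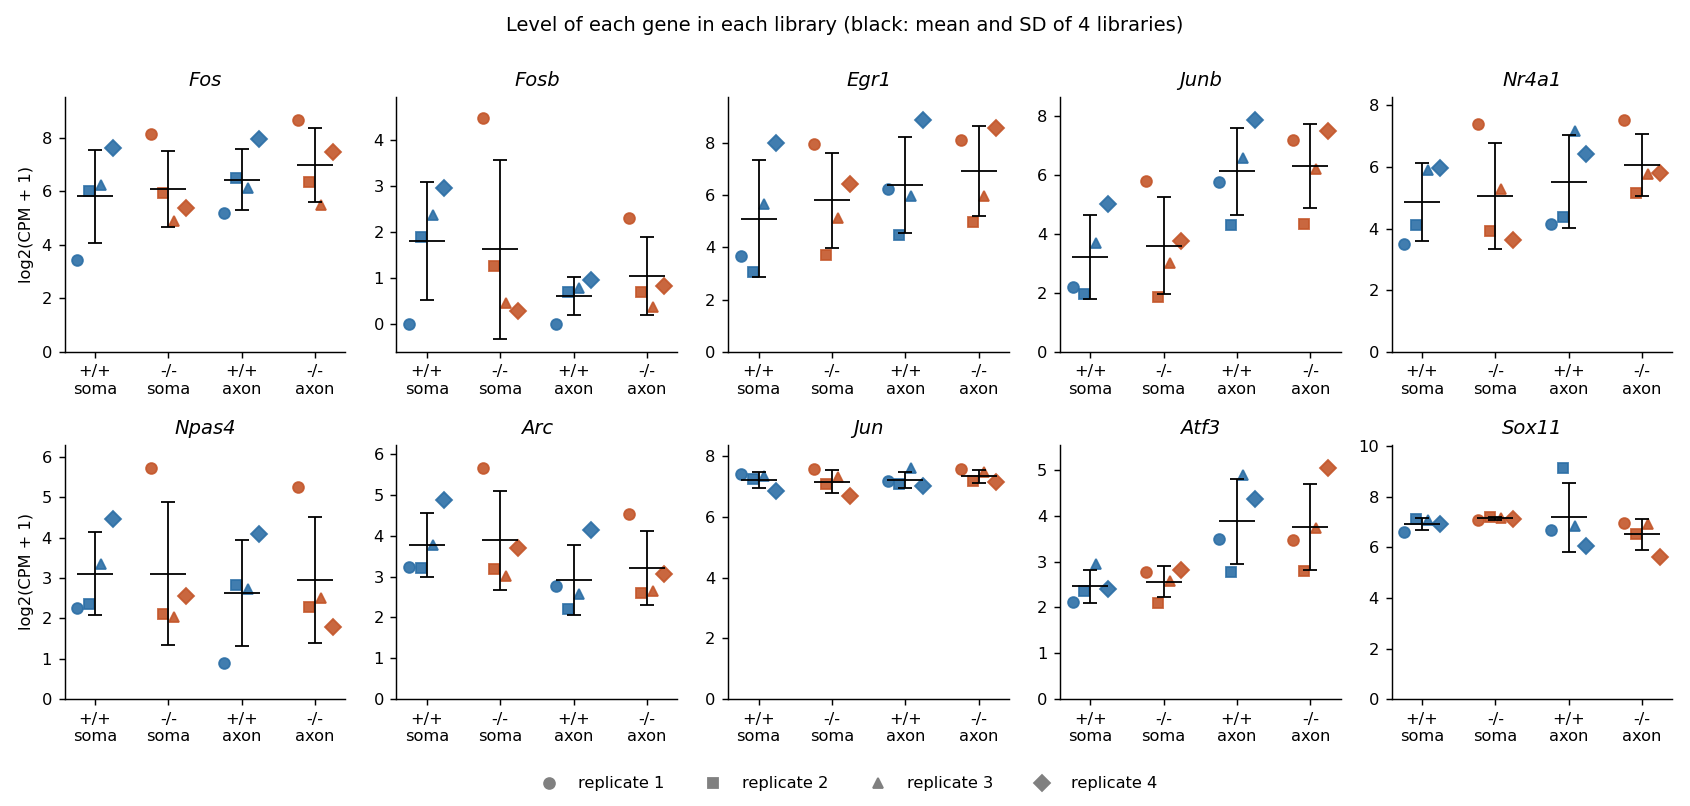
Level of each of the 10 genes, as log2(CPM + 1), in the 4 libraries of each group, with blue for +/+, orange for Hnrnpr-/-, a symbol for each replicate number and black lines for the mean and SD. The spread within groups is large for Fos, Fosb, Egr1, Junb, Nr4a1, Npas4 and Arc, with Hnrnpr-/- replicate 1 high in both compartments, and small for Jun.

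Per kilobase of exon, the median level over 8 somatodendritic libraries was highest for Jun (48.3 CPM per kb), followed by Fos (29.4), Sox11 (16.1), Egr1 (13.7), Junb (5.15), Nr4a1 (3.81), Arc (3.33), Atf3 (2.34), Fosb (0.541) and Npas4 (0.268 CPM per kb). Over the 8 axonal libraries the order was Jun (45.2 CPM per kb), Junb (45), Fos (40.5), Egr1 (22.3), Sox11 (12.8), Nr4a1 (7.62), Atf3 (5.71), Arc (1.81), Npas4 (0.307) and Fosb (0.177 CPM per kb). Every pair of neighbours in either order overlapped in range over the libraries. The Npas4 value rests on a combined exon length of 16747 bases, which sums all annotated transcripts and lowers its level per kilobase.

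The axonal compartment was compared with the somatodendritic one within each genotype, using edgeR's quasi-likelihood test with Benjamini-Hochberg adjustment over all 19964 genes. In +/+ motoneurons Junb and Atf3 were higher in axons, and the other 8 genes did not pass in the fit without a replicate block. Junb was 7.99-fold higher (log2 fold change 3.0, SE 1.05, n = 4 and 4, adjusted p = 0.0235 by edgeR), and Atf3 was 3.46-fold higher (1.79, SE 0.52, adjusted p = 0.00892). Of all genes tested, 57.5% passed in this comparison, 30.1% higher and 27.4% lower in axons, so 2 of 10 is below the share of all genes. The median log2 fold change was 0.58 over the 10 genes and 0.07 over all genes, and that over the 10 genes was -0.16 without axonal and 0.97 without somatodendritic +/+ replicate 4. Leaving out axonal replicate 4 or somatodendritic replicate 1, 2 or 3 of +/+ left Junb short of the threshold (adjusted p = 0.0851, 0.0626, 0.0622 and 0.0522 by edgeR), with log2 fold changes of 2.15 to 2.98. Without somatodendritic +/+ replicate 4, the highest of its group for Junb, the log2 fold change of Junb was 4.02.

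In Hnrnpr-/- motoneurons Atf3 was 3.0-fold higher in axons (log2 fold change 1.59, SE 0.52, n = 4 and 4, adjusted p = 0.0177 by edgeR). Junb, 5.44-fold higher, missed the threshold (2.44, SE 1.02, adjusted p = 0.0546), and without somatodendritic Hnrnpr-/- replicate 1 it passed with a log2 fold change of 3.82 (adjusted p = 0.0125 by edgeR). Here 54.2% of all genes passed, 27.5% higher and 26.8% lower in axons, and the median log2 fold change was 0.32 over the 10 genes and -0.00282 over all genes, and that over the 10 genes was -0.16 without axonal and 1.67 without somatodendritic Hnrnpr-/- replicate 1. Atf3 no longer passed without somatodendritic replicate 2 (1.43, adjusted p = 0.0521 by edgeR) or axonal replicate 4 (0.91, adjusted p = 0.110). Libraries of this genotype with the same number deviated together, and with the replicate number as a block 5 of the 10 genes passed, against 54.4% of all genes (26.5% higher and 27.9% lower). In that fit Junb (2.89, SE 0.39, adjusted p = 0.000466 by edgeR), Atf3 (1.34, SE 0.35, adjusted p = 0.00992), Egr1 (1.13, SE 0.41, adjusted p = 0.0379) and Nr4a1 (1.03, SE 0.33, adjusted p = 0.0249) were higher in axons. Arc was lower (-0.75, SE 0.21, adjusted p = 0.0136 by edgeR).

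In the fit without the block, the remaining fold changes did not pass, and many had standard errors close to or above their size. Fos had log2 fold changes of 0.36 (SE 0.90) in +/+ and 0.78 (SE 0.91) in Hnrnpr-/- motoneurons, Egr1 0.94 (SE 1.21) and 0.98 (SE 1.21), and Nr4a1 0.86 (SE 0.92) and 0.49 (SE 0.91). Fosb had -2.56 (SE 1.5) and -2.06 (SE 1.44), Arc -0.89 (SE 0.71) and -0.95 (SE 0.71), and Npas4 -0.43 (SE 1.09) and -0.39 (SE 1.08). Jun had 0.01 (SE 0.20) and 0.16 (SE 0.20), the smallest standard errors of the 10 genes. Sox11 had 0.79 (SE 0.51) in +/+, which was -0.38 without axonal replicate 2, and -0.55 (SE 0.51) in Hnrnpr-/- motoneurons.

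**Figure D2:**
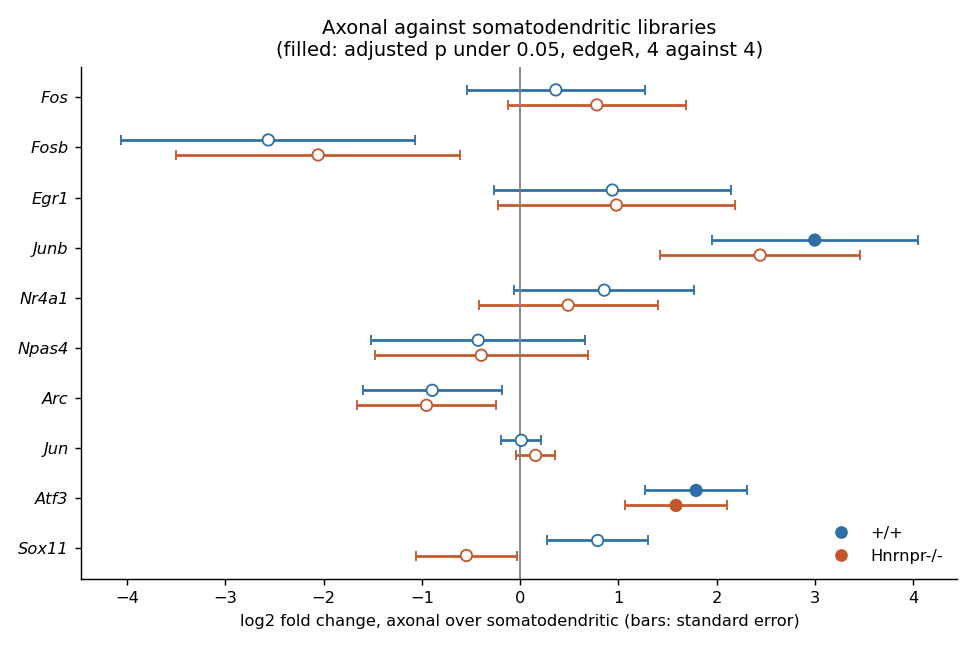
Log2 fold change of each gene, axonal over somatodendritic, from edgeR with its standard error as a bar, in +/+ (blue) and Hnrnpr-/- (orange) motoneurons, 4 libraries against 4. Filled points passed an adjusted p of 0.05, which were Junb and Atf3 in +/+ and Atf3 in Hnrnpr-/- motoneurons.

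Tested by exact permutation of the libraries, two-sided, a difference in mean log2(CPM + 1) cannot go below 0.0286 with 4 libraries against 4. Junb and Atf3 had an exact p of 0.0571 in both genotypes. Sox11 reached 0.0286 in Hnrnpr-/- motoneurons, where its axonal libraries were all below the somatodendritic ones, by 0.63 on the log2 scale. It was the only one of the 10 genes whose groups did not overlap. Over all genes tested the groups did not overlap for 52.4% in +/+ and 51.4% in Hnrnpr-/- motoneurons. The marker sums above differed between the compartments in the same libraries, with every axonal library above every somatodendritic one for the pericyte and smooth muscle markers, and their part in the compartment differences was not tested.

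Libraries of the same genotype and replicate number were then set side by side, which gave 8 pairs of an axonal and a somatodendritic library. This comparison was chosen after the values had been seen. Junb was higher in the axonal library of 8 of 8 pairs, by 1.40 to 3.74 on the log2(CPM + 1) scale. Egr1 (0.15 to 2.59), Nr4a1 (0.12 to 2.19) and Atf3 (0.42 to 2.24) were also higher in 8 of 8 pairs, and Fos was higher in 7 of 8. Arc was lower in the axonal library of 8 of 8 pairs, with differences from -1.21 to -0.37. Fosb was lower in 6 pairs, higher in 1 and at 0 in both libraries of 1 pair. Jun was higher in 6, Npas4 in 3 and Sox11 in 2 of 8 pairs.

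Over the 8 pairs, somatodendritic and axonal levels of the 7 activity-induced genes had an unadjusted exact p under 0.05 for Pearson's r, and no gene passed after adjustment over all genes. Pearson's r on the log2(CPM + 1) scale was 0.946 for Arc (Spearman's rho 0.619, exact permutation p = 0.00444 and 0.115), 0.898 for Egr1 (rho 0.810, exact p = 0.00469 and 0.0218) and 0.886 for Npas4 (rho 0.667, exact p = 0.00570 and 0.0831). It was 0.873 for Fosb (rho 0.762, exact p = 0.00236 and 0.0368), 0.870 for Nr4a1 (rho 0.810, exact p = 0.00466 and 0.0218), 0.862 for Fos (rho 0.786, exact p = 0.00580 and 0.0279) and 0.860 for Junb (rho 0.905, exact p = 0.00737 and 0.00456). Atf3 (r = 0.719, rho 0.714, exact p = 0.0516 and 0.0576), Jun (r = 0.671, rho 0.667, exact p = 0.0696 and 0.0831) and Sox11 (r = 0.180, rho 0.190, exact p = 0.533 and 0.665) did not reach 0.05.

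In all, 7 of the 10 genes had an exact p under 0.05 for r, each with a positive r. Of 19959 genes, 7.54% had both such a p and a positive r. The 7 genes varied together, as given below, so they are not separate results. After Benjamini-Hochberg adjustment over the 19959 genes the 10 genes had adjusted exact p values of 0.409 to 0.880. The median r was 0.866 over the 10 genes and 0.215 over all genes. Within genotypes, with levels centred on the genotype mean, r was 0.861 to 0.959 for the 7 activity-induced genes. Without the pairs farthest from the median somatodendritic level, r was 0.926 for Junb (exact p = 0.0111) and 0.814 for Egr1 (exact p = 0.0389) over 6 pairs. It was 0.781 for Nr4a1 (exact p = 0.0694), 0.660 for Fos (exact p = 0.147) and 0.615 for Fosb (exact p = 0.185). For Arc it was 0.381 (exact p = 0.487) and for Npas4 0.277 (exact p = 0.560). These 5 genes thus did not reach 0.05. With 6 pairs and the extreme levels removed, that does not show that the relation was absent. The pairs left out were +/+ replicate 1 and Hnrnpr-/- replicate 1 for Fos and Fosb, and +/+ replicate 4 and Hnrnpr-/- replicate 1 for the others. The labels do not say that libraries of the same number come from the same chamber.

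**Figure D3:**
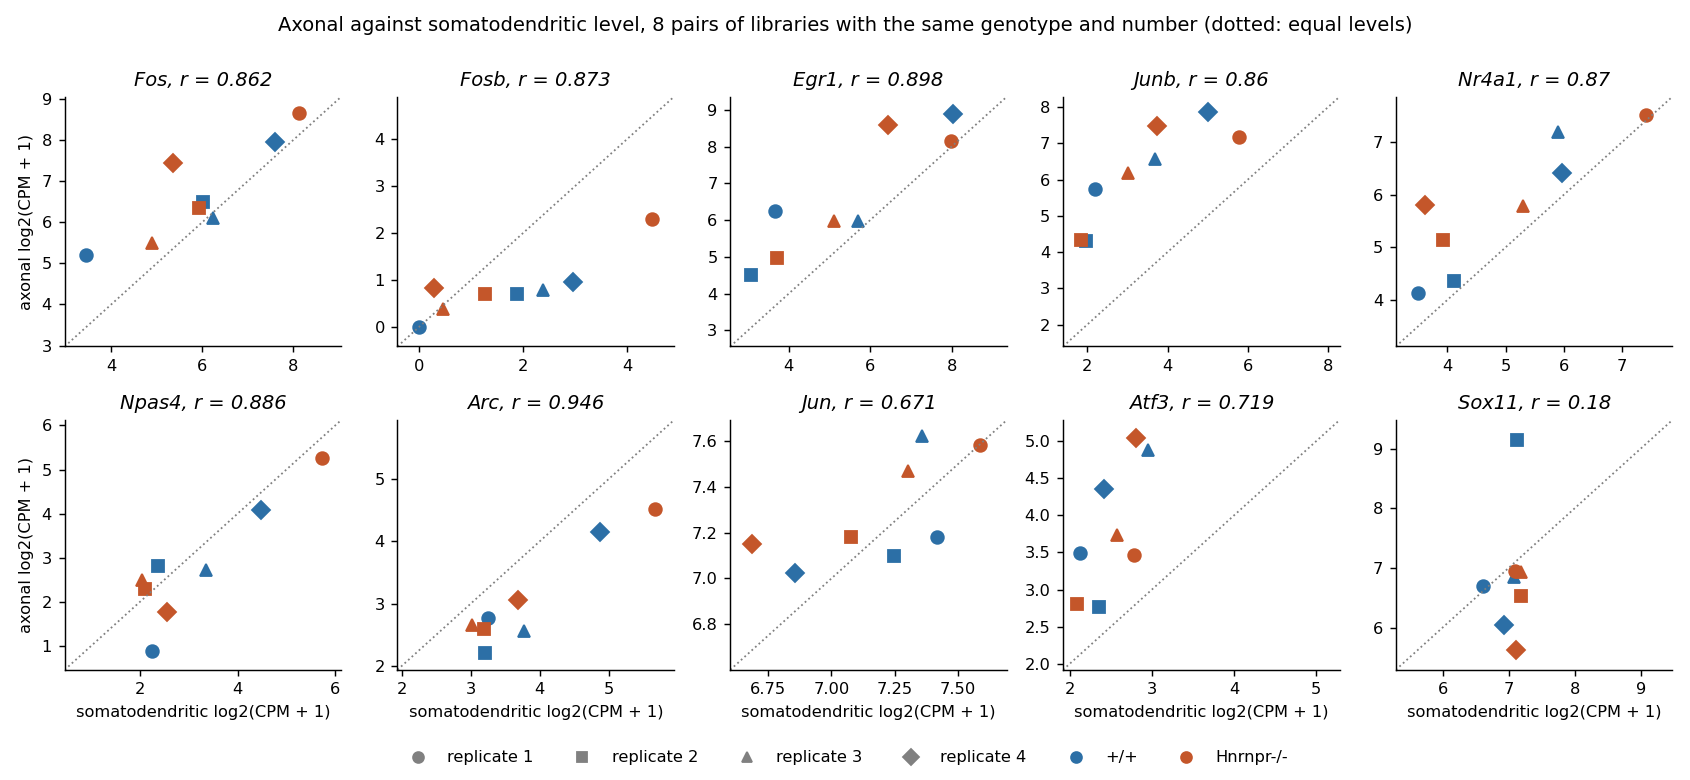
Axonal against somatodendritic log2(CPM + 1) of each gene in 8 pairs of libraries with the same genotype (blue +/+, orange Hnrnpr-/-) and replicate number (symbol), with equal levels as a dotted line and Pearson's r above each panel. The 8 pairs of Junb all lie above the line and those of Arc all below it.

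The comparison of Hnrnpr-/- with +/+ motoneurons asks what the loss of hnRNP R changes in each compartment. None of the 10 genes passed in edgeR in either compartment, 0 of 10 were at an unadjusted p under 0.05, and DESeq2 and limma voom also called 0. Of all genes, 0.00501% passed in each compartment, which is Hnrnpr itself, with log2 fold changes of -7.88 (SE 0.23) in the somatodendritic and -7.91 (SE 0.55) in the axonal libraries, and 550 and 172 genes were at an unadjusted p under 0.05. Log2 fold changes of the 10 genes ran from -0.04 (Jun, SE 0.19) to 0.79 (Fosb, SE 1.31) in somatodendritic and from -1.14 (Sox11, SE 0.67) to 1.29 (Fosb, SE 1.12) in axonal libraries, with medians of 0.34 and 0.28. Fos had 0.26 (SE 0.83) and 0.68 (SE 0.76). The somatodendritic Fosb value changes sign with the scale, since the mean log2(CPM + 1) was 0.19 lower in Hnrnpr-/- motoneurons (difference -0.19, exact permutation p = 0.886). Without axonal +/+ replicate 2 the axonal Sox11 difference was 0.03. The somatodendritic median over the 10 genes was -0.76 without Hnrnpr-/- replicate 1 and 1.05 without +/+ replicate 4, and the axonal median was -0.14 and 0.99 without the axonal libraries of the same numbers.

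For Fos, Egr1, Junb, Nr4a1 and Npas4 the standard errors ran from 0.76 to 1.07 on the log2 scale. Those of Fosb were larger, at 1.306 in somatodendritic and 1.115 in axonal libraries. To pass after adjustment over all genes tested, a difference has to be well above its standard error. Genotype differences of the size of these standard errors, and larger ones, could thus be missed. The lack of a call does not show that these genes were unchanged. Jun and somatodendritic Sox11 were measured more closely, and Sox11 had a log2 fold change of 0.19 (SE 0.12) in somatodendritic libraries. In no case did the 4 Hnrnpr-/- and 4 +/+ libraries of a compartment lie apart for any of the 10 genes, where they did for 1.58% of all genes in somatodendritic and 0.606% in axonal libraries. Whether the genotype effect differed between the compartments was tested as an interaction, which passed for 0 of the 10 genes and for 0.0% of all genes in edgeR, with 265 genes at an unadjusted p under 0.05, none of them among the 10, and 0 of the 10 in DESeq2 and limma voom. Sox11 had the largest such difference (-1.34, SE 0.73).

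Several of these genes differed widely between replicates of a group. The SD of log2(CPM + 1) within groups, pooled over both genotypes, was 2.05 for Egr1, 1.65 for Fosb, 1.59 for Fos, 1.55 for Junb, 1.51 for Nr4a1, 1.45 for Npas4 and 1.02 for Arc in somatodendritic libraries. The median over 12370 genes with a mean of at least 5 CPM was 0.199, and 3 of these genes had a larger SD than Egr1, 17 than Fos and 75 than Arc. The injury-response genes lay closer to that median, with 0.343 for Atf3, 0.321 for Jun and 0.171 for Sox11. Axonal libraries varied more in general, with a median SD of 0.403 over 12872 genes. There the SD was 1.78 for Egr1, 1.45 for Junb, 1.44 for Npas4, 1.29 for Nr4a1, 1.27 for Fos, 1.05 for Sox11, 0.938 for Atf3, 0.877 for Arc, 0.674 for Fosb and 0.244 for Jun. Of the 12872 genes, 86 had a larger SD than Egr1 and 10554 a larger SD than Jun.

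**Figure D4:**
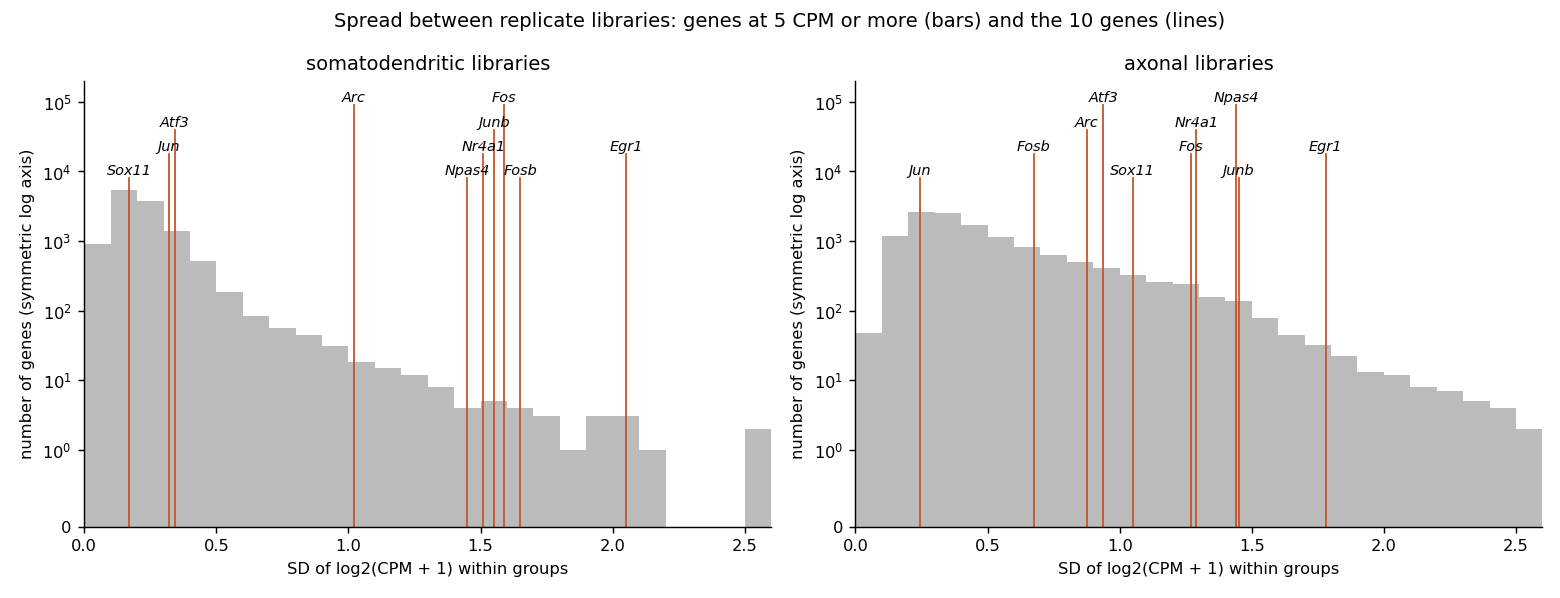
Number of genes with a mean of at least 5 CPM by the SD of log2(CPM + 1) within groups (grey bars, symmetric log axis), in somatodendritic (left) and axonal (right) libraries, with lines at the values of the 10 genes. The 7 activity-induced genes lie at 1.02 to 2.05 in somatodendritic libraries, where the median gene is at 0.199. Fosb in both panels and Atf3 in the left one have means below 5 CPM.

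The high libraries were largely the same ones for the 7 activity-induced genes. In somatodendritic libraries +/+ replicate 4 and Hnrnpr-/- replicate 1 were the highest of their group for all 7. In axonal libraries +/+ replicate 4 was the highest for 6 of the 7, the exception being Nr4a1, and Hnrnpr-/- replicate 1 for 5, the exceptions being Egr1 and Junb. The neuron marker sums of these somatodendritic libraries were the lowest of +/+ (4850 CPM) and the highest of Hnrnpr-/- (6830 CPM), and their astrocyte and radial glia sums (1130 and 1060 CPM), oligodendroglia and Schwann cell sums (106 and 122 CPM) and microglia sums (11.3 and 11.4 CPM) were the lowest of both groups. The axonal libraries of the same numbers also had the lowest astrocyte and radial glia sums (2250 and 2090 CPM) and oligodendroglia and Schwann cell sums (92.8 and 80.7 CPM) of their groups. Their endothelial sums were the highest of both groups (255 and 140 CPM), the fibroblast and meningeal sum was the highest of +/+ axons in replicate 4 (1600 CPM), and the neuron sum was the highest of Hnrnpr-/- axons in replicate 1 (3080 CPM). The part of cell composition in this spread was not tested.

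Deviations from the group mean showed the same grouping. Over the 16 libraries, Pearson's r between 2 of the 7 activity-induced genes was 0.561 to 0.960 with a median of 0.790 in 21 pairs of genes, given as a description since all points share their libraries. The highest was that of Egr1 and Junb. With the activity-induced genes, r had a median of 0.106 for Jun, 0.242 for Atf3 and -0.167 for Sox11. Atf3 reached 0.672 with Junb.

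**Figure D5:**
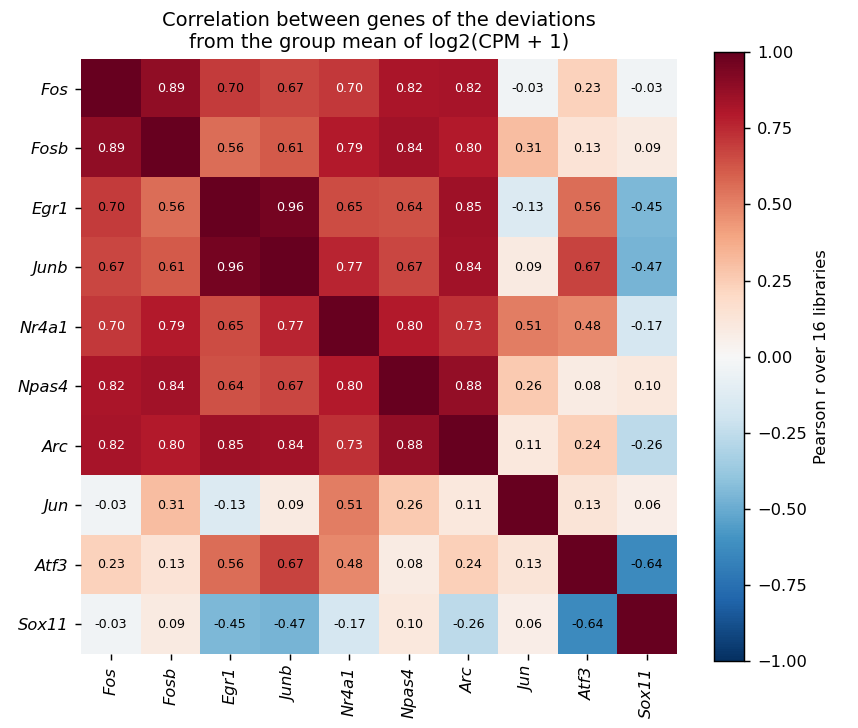
Pearson's r between the 10 genes, over 16 libraries, of the deviation of log2(CPM + 1) from the group mean, from -1 (blue) to 1 (red). The 7 activity-induced genes from Fos to Arc form a block between 0.561 and 0.960, and the rows of Jun, Atf3 and Sox11 are paler.

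Among 12989 genes outside the set with a mean of at least 5 CPM, the genes most like each one over the 16 libraries were found by Pearson's r of log2(CPM + 1), as a description. Those most like Junb were the immediate early gene Ier2 (r = 0.958), the small Maf gene Maff (0.948) and the cyclooxygenase gene Ptgs2 (0.947). Ptgs2 was also nearest to Egr1 (0.819), before Gfpt2 (0.796) and H6pd (0.762). Fos was nearest to Mlx (0.775), Srxn1 (0.669) and Ptgs2 (0.664), and Nr4a1 to Nfil3 (0.886), Per1 (0.768) and Gla (0.731). Npas4 (Gm5909 at 0.848, Nfil3 at 0.797, Hsd17b7 at 0.752), Arc (Gm5909 at 0.838, Aptx at 0.811, Ate1 at 0.768) and Fosb (Gm5909 at 0.789, Aptx at 0.715, Uap1 at 0.707) shared their nearest gene. Jun was nearest to Atf4 (0.805), the stress-response bZIP factor, with Sipa1l1 (0.784) and Slc46a1 (0.778). Atf3 (Klk8 at 0.934, Sav1 at 0.933, Slc10a3 at 0.929) and Sox11 (Nudt11 at 0.942, Gm32687 at 0.941, Cul4b at 0.940) had the closest neighbours after Junb.

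Related genes were described by list. Of 10 tested AP-1 and other bZIP genes outside the set, 8 were higher and 0 lower in axons in +/+ and 7 and 0 in Hnrnpr-/- motoneurons, with median log2 fold changes of 1.92 and 1.79. Over all genes 30.1% were higher and 27.4% lower in +/+, and 27.5% and 26.8% in Hnrnpr-/- motoneurons. Batf did not pass the filter. The C/EBP gene Cebpd rose by 4.10 in +/+ (SE 0.69, adjusted p = 0.000253 by edgeR) and 3.71 in Hnrnpr-/- motoneurons, Maff by 3.12 and 2.65, the small Maf gene Mafk by 2.24 and 2.32, and Cebpb by 2.11 and 2.07, all on the log2 scale. Of 29 other immediate early genes, 18 were higher and 3 lower in +/+, and 15 and 3 in Hnrnpr-/- motoneurons. Ccn1, a secreted matrix-associated protein, rose by 6.05 in +/+ (SE 0.92, adjusted p = 0.000128 by edgeR) and 5.62 in Hnrnpr-/- motoneurons, and the stress-response genes Gadd45g (4.31 and 3.54) and Gadd45b (3.93 and 2.97) and the mRNA decay factor Zfp36 (4.02 and 3.76) rose too. Their median log2 fold change was 1.82 and 1.16.

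Of 27 tested regeneration-associated genes, 10 were higher and 7 lower in axons in +/+ and 9 and 4 in Hnrnpr-/- motoneurons, with medians of -0.03 and 0.25, and Sprr1a did not pass the filter. Over all genes 30.1% were higher and 27.4% lower in +/+, and 27.5% and 26.8% in Hnrnpr-/- motoneurons. The count of 4 in Hnrnpr-/- motoneurons depended on the fit and was 7 with the replicate block. The largest changes in +/+ motoneurons were upward. The small heat shock gene Hspb1 rose by 5.94 and 5.88, the galectin gene Lgals1 by 5.58 and 5.46, the annexin gene Anxa2 by 5.25 and 4.73 and the hyaluronan receptor gene Cd44 by 4.39 and 3.37 on the log2 scale in +/+ and Hnrnpr-/- motoneurons. Of 6 other Sox genes, 3 were higher and 1 lower in both genotypes. The lower one was Sox12 (-1.47 and -1.34), a SoxC gene like Sox11. Sox2 (2.10 and 1.30), Sox3 (2.19 and 2.41) and Sox9 (1.35 and 0.76) were higher, and are known in neural progenitors and glia. Sox9 also stands in the astrocyte and radial glia marker list, whose sum was mostly higher in axonal libraries, with overlap between the compartments.

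In the DLK and JNK pathway the genes that passed were lower in axons. Of 13 genes of the DLK and JNK pathway, 0 were higher and 12 lower in axons in +/+ and 0 and 13 in Hnrnpr-/- motoneurons, with medians of -1.67 and -1.58. The JNK scaffold genes Mapk8ip1 (-2.49 and -1.91) and Mapk8ip2 (-2.19 and -1.88), the axon survival gene Nmnat2 (-2.12 and -1.58) and the kinase gene Map3k13 (-2.09 and -1.88) fell most in +/+ motoneurons. Of 24 genes of activity signalling and the SRF, CREB and MEF2 factors, 4 were higher and 11 lower in +/+ and 4 and 10 in Hnrnpr-/- motoneurons, with 9 and 10 not passing and 27.4% and 26.8% of all genes lower. The calcium-dependent kinase genes Camk2b (-2.53 and -2.28), Camk2a (-2.45 and -2.21) and Camk4 (-2.02 and -2.27) fell, and Elk3, a partner of SRF, rose (3.20 and 2.83). The neuron marker sum was lower in every axonal than in every somatodendritic library, and its part in these counts was not tested. For the genotype, 0 genes of any of these lists passed in edgeR in either compartment.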

How the data were processed

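cDNA of 16 libraries was made with SMART-Seq v4, with more PCR cycles for axonal RNA, and sequenced from one end. The deposited values are expected counts: the authors aligned reads with STAR 2.7.2b to GRCm39 and counted them on exons with featureCounts 1.6.4 by strand, with multi-mapping and overlapping reads as fractions, without normalization. Total counts were 22024923 to 34864151. Amplified reads are not independent molecules, so the limit for a count of 0 covers counting error only.

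Counts were rounded and fitted in R 4.3.3 with edgeR 4.0.16 (TMM factors over 16 libraries, expression filter over the 4 groups, quasi-likelihood test, two-sided, Benjamini-Hochberg over 19964 genes, threshold 0.05). Compartments were compared in a fit of all 16 libraries. Genotypes were compared within the 8 libraries of a compartment, since the common dispersion was 0.0535 in somatodendritic and 0.303 in axonal libraries. The standard error is the log2 fold change divided by the square root of F. CPM use TMM-scaled totals, and log2 levels add 1 CPM. Gene positions and exon lengths are those deposited with the counts. The fits were tested on simulated data, where most of the changes set in were missed in the compartment and axonal genotype fits, and some unchanged genes were called in the compartment and somatodendritic genotype fits.

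Hnrnpr-/- somatodendritic and axonal libraries of the same number had correlated deviations from the group means over 19964 genes (r = 0.444, 0.169, 0.246 and 0.577, each above 0.1), so the block is given beside that comparison. This was not so for every +/+ pair (r = 0.0833 to 0.292), and the +/+ block result carries that limit. Alternatives were RLE factors, library totals, no filter, at least 10 counts per library, unrounded counts, DESeq2 1.42.0, limma 3.58.1 with voom weights, 1 fit for all libraries, the block, and leaving out each library.

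The 10 genes and all lists were chosen with earlier results of these data known. All 10 genes are named. Of each other list, up to 4 genes are named with the largest absolute log2 fold change between +/+ compartments among those past the threshold and with a mean of at least 5 CPM, and for each of the 10 genes the 3 genes most like it. No sequence is shown for Egr1 and Arc.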

Additional observations from a re-analysis of the deposited data

Results flagged for a closer look

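Of the 40 sets of 4 libraries (10 genes in 4 groups), 11 (27.5%) held 1 library farther from the other 3 in CPM than Dixon's test allows, against 7.35% of 79782 such sets over all genes tested. Chance gives about 1 in 20 for independent normal values, which these are not, since the sets share 16 libraries and the genes vary together. On the log2(CPM + 1) scale 1 of the 40 sets (2.5%) remained, Npas4 in Hnrnpr-/- somatodendritic libraries, against 6.12% over all genes, so the other 10 depend on the linear scale. That scale was added after seeing the data. Hnrnpr-/- replicate 1 was the high library in 8 of them. In the somatodendritic compartment it had Fos at 281 CPM, Fosb at 21.4 CPM, Npas4 at 52.1 CPM and Arc at 49.7 CPM. In the axonal compartment it had Fosb at 3.92 CPM, Npas4 at 37.2 CPM, Nr4a1 at 182 CPM and Arc at 22 CPM. Axonal +/+ replicate 4 stood apart with Egr1 at 472 CPM and Arc at 16.7 CPM, and axonal +/+ replicate 2 with Sox11 at 566 CPM.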

How the results depend on the processing

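In +/+ motoneurons 2 of the 10 genes, Junb and Atf3, differed between compartments under every alternative except the replicate block, which gave 5 (Arc, Atf3, Egr1, Fosb and Junb, where 11246 of 19964 genes passed), and the removal of 1 library, which gave 1 to 2. The pairing check gave r of 0.0833 to 0.292 for same-numbered +/+ libraries, with replicate 4 below 0.1, while 8 of 8 libraries correlated best with their own number, a hint from the data and not from the design. In Hnrnpr-/- motoneurons 1 gene passed. It was 2 (Atf3 and Junb) with library totals, with at least 10 counts in every library, with limma voom and with DESeq2 at default settings, 5 with the replicate block and 0 to 2 with 1 library left out. The count was 0 without somatodendritic replicate 2 or axonal replicate 4. It was 2 without somatodendritic replicate 1 or axonal replicate 2 of Hnrnpr-/-, or without somatodendritic replicate 4 or axonal replicate 2 or 4 of +/+, with adjusted p for Junb of 0.0125, 0.0353, 0.0460, 0.0451 and 0.0475 by edgeR. For the genotype, and its difference between compartments, the count of 0 held under all alternatives run, the block included, for which r was 4.35e-05 to 0.470 between somatodendritic and 0.0462 to 0.786 between axonal libraries. The block changed no call of the 10 genes beyond those named, and moved the counts of the other lists by at most 1 in each direction except for the regeneration-associated genes below. The 7 genes with an unadjusted exact p under 0.05 for the correlation became 2 (Egr1 and Junb) without the pairs farthest from the median. They became 5 with Spearman's rho. Over all removals of pairs the count was 2 to 8, where the 2 is again the removal of the farthest pairs. These alternatives to the correlation, and those for the lists and medians, were chosen after seeing the data.

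Log2 fold changes that changed sign with 1 library left out ranged, between +/+ compartments, from -0.642 to 2.76 for Egr1, -0.409 to 1.16 for Fos, -0.137 to 0.0826 for Jun, -1.20 to 0.321 for Npas4 and -0.384 to 1.09 for Sox11. Between Hnrnpr-/- compartments they ranged from -1.70 to 0.136 for Arc, -0.0382 to 2.03 for Fos, -3.38 to 1.09 for Fosb, -2.11 to 1.68 for Npas4 and -0.279 to 1.94 for Nr4a1. Between genotypes they ranged from -0.989 to 1.06 for somatodendritic Fos, -0.142 to 1.45 for axonal Fos and -1.44 to 0.0312 for axonal Sox11, and the replicate block turned somatodendritic Fos to -0.205. Of the 10 genes, 9 changed sign between genotypes in each compartment with 1 library left out, 4 somatodendritic and 1 axonal under another alternative, and in the difference between compartments 8 and 4 did, none of them called. With 1 library left out the median over the 10 genes ranged from -0.163 to 0.970 between +/+ and from -0.158 to 1.67 between Hnrnpr-/- compartments, and between genotypes from -0.762 to 1.05 in somatodendritic and -0.138 to 0.988 in axonal libraries. Of the regeneration-associated genes, 4 were lower in Hnrnpr-/- axons, against 7 with the block, 9 with limma voom and 10 without axonal replicate 1. The cause of these shifts was not tested. A count of 0, as for Fosb in +/+ replicate 1, limits that level to 0.0905 and 0.102 CPM.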
